A study of Homo sapiens with 9 samples.

Results

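The 54 genes described here work in DNA replication and in cell division and were taken by symbol from an expression table of 23610 genes. They were read as 28 S phase genes and 26 G2 and mitosis genes, and all 54 passed the filter on low values (an average over the libraries of 1 FPKM or more), which kept 11348 genes. FPKM, fragments counted per kilobase of transcript and scaled to the mapped total of the library, compares genes per unit of length. The RNA was polyA RNA of GIST-T1, an established cell line from a human gastrointestinal stromal tumour, in 9 libraries. The cells carried an sgRNA against ETV1 in 3 libraries, an sgRNA against HAND1 in 3, and in the 3 controls an sgRNA against Luciferase, an insect enzyme with no human counterpart. The labels call this a knockdown and do not give the Cas9 form, the time since the sgRNA was introduced or whether replicates were grown apart. The p-values and intervals cover only the differences among replicate libraries, part of which can be technical.

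A dividing cell switches on its genes in waves. Before and during S phase, E2F factors freed from RB proteins switch on the genes that load and run the replication machinery. Later the MuvB complex with B-MYB and FOXM1 switches on the genes that build the spindle and part the chromosomes. Their levels are widely used as a readout of proliferation, which KIT signalling drives in gastrointestinal stromal tumours. In a bulk library, fewer cells in a phase and less RNA per cell cannot be told apart.

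The promoters are shown first because each wave is known for short motifs in them. RefSeq promoters (GRCh38.p14) were matched by symbol for 24 of 28 S phase genes and 20 of 26 G2 and mitosis genes, and the 250 bases before each start were searched on both strands. An E2F word (TTTCGCGC, TTTGGCGC, TTTCCCGC or TTTGCCGC) was in 50% of the matched S phase genes, 10% of the matched G2 and mitosis genes and 3.4% of all 27305 genes in the promoter table. The cell cycle homology region (CHR, TTTGAA), which MuvB binds, was in 4.17%, 55% and 16.1% of the same sets. The CCAAT box (CCAAT), bound by NF-Y, was in 70.8%, 90% and 37%. No word of one motif contains a word of another, and a match is a description of the letters only.

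The first set shows 150 bases before the start of 4 S phase genes, on the strand of the gene from 5′ to 3′, with E2F words in capitals. They are MCM6 (chr2:135876444-135876593, minus strand), RFC3 (chr13:33817999-33818148, plus strand), E2F1 (chr20:33686386-33686535, minus strand) and RFC2 (chr7:74254400-74254549, minus strand). RFC2 is shown because its transcript was lower under HAND1 sgRNA, and it holds none of these words in the bases shown. Of the 24 matched S phase genes 12 held no E2F word in the bases searched. GINS4, also lower under HAND1 sgRNA, was not among the matched genes.
MCM6: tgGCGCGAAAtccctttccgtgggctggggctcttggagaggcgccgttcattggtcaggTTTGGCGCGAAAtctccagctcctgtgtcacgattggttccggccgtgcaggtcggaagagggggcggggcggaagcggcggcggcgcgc
RFC3: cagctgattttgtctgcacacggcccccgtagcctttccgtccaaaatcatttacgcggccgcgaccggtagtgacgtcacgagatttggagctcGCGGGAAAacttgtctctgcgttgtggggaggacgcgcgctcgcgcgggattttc
E2F1: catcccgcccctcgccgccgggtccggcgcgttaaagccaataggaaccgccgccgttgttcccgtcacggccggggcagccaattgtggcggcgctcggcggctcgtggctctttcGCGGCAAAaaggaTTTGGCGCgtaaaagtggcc
RFC2: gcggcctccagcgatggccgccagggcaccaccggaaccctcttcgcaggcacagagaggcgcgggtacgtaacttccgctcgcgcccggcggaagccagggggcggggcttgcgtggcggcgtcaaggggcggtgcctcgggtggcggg

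The second set shows 4 G2 and mitosis genes in the same way, with CHR and CCAAT words in capitals. They are PLK1 (chr16:23678739-23678888, plus strand), CCNB2 (chr15:59104996-59105145, plus strand), DLGAP5 (chr14:55191586-55191735, minus strand) and PTTG1 (chr5:160421705-160421854, plus strand, the first of 2 starts). PLK1 and CCNB2 each carry a CHR that begins 29 bases before the start, with 1 and 3 CCAAT words further out. DLGAP5 and PTTG1 are shown because their transcripts were lower under HAND1 sgRNA. In DLGAP5 the CHR words begin 138 and 109 bases before the start, and PTTG1 holds no CHR and 3 CCAAT words, 2 of them overlapping on opposite strands.
PLK1: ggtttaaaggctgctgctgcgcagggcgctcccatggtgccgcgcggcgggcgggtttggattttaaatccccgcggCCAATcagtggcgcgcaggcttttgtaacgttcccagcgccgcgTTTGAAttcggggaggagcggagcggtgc
CCNB2: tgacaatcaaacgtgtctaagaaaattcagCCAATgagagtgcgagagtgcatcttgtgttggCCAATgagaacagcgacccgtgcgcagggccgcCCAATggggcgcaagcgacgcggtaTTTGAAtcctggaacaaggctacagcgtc
DLGAP5: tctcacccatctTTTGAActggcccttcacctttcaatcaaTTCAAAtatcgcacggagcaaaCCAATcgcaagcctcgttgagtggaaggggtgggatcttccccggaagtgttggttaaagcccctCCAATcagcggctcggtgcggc
PTTG1: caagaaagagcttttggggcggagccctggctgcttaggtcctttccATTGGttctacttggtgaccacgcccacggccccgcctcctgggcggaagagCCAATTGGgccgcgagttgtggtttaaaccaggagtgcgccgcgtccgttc

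Each targeted transcript was lower under its own sgRNA. ETV1, an ETS transcription factor of interstitial cells of Cajal, averaged 39.7 ± 2.42 FPKM in the controls and 11.4 ± 0.571 under ETV1 sgRNA (SD, n = 3). HAND1, a basic helix-loop-helix transcription factor, averaged 114 ± 1.12 FPKM in the controls and 38.3 ± 2.25 under HAND1 sgRNA. All 7 markers of gastrointestinal stromal tumours and interstitial cells of Cajal were above 1 FPKM on average, while 10 of 11 blood and endothelial, 6 of 8 epithelial and 7 of 9 neuronal and glial markers were below it. The summed blood and endothelial markers ranged over 4.92 to 6.03, 7.62 to 11.2 and 5.798 to 9.37 FPKM in the control, ETV1 sgRNA and HAND1 sgRNA groups, the epithelial ones, mostly KRT18, over 227 to 265, 222 to 246 and 204 to 220.3, and the neuronal ones, mostly TUBB3, over 53.5 to 61.4, 56.98 to 64.2 and 62.8 to 67.4. The highest blood and endothelial sum, in ETV1 sgRNA replicate 1, held 5.02 FPKM of CD68 and 3.59 of HBB, which was listed at 0 in the controls. HBA1, KRT19, KRT20 and SNAP25 were listed at 0 in all libraries. Under HAND1 sgRNA CD68 rose from 4.06 ± 0.629 to 6.13 ± 0.692 FPKM (limma adjusted p = 0.0466) and MAP2 from 1.096 ± 0.239 to 2.26 ± 0.302 FPKM (0.0148). KIT, the receptor that drives these tumours, fell there from 209 ± 11.3 to 159.9 ± 4.51 FPKM (limma adjusted p = 0.00336) and PRKCQ from 6.84 ± 0.232 to 3.67 ± 0.149 (3.26e-04), while under ETV1 sgRNA PDGFRA rose from 15.5 ± 0.857 to 20.5 ± 0.9205 (0.0436). The part of these genes in the results was not tested. Read counts were not used; steps in the low FPKM values put the depth between 0.637 and 1 relative to control replicate 1. Control replicate 3 stood apart, with its 1025 genes under 1500 nt at a median of 0.31 (log2) above the other controls.

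Most genes of both phases were abundant, with MCM10, ORC1 and CENPE below the median of the genes tested. Averaged over all 9 libraries, the S phase genes ran from 10.8 FPKM (MCM10) to 291 FPKM (MCM7), and the G2 and mitosis genes from 7.42 FPKM (CENPE) to 190.4 FPKM (PTTG1). MCM7 stood above 98.1% of the genes tested, and MCM10, ORC1 and CENPE above 44.1%, 46.7% and 33.8%. After MCM7 came TK1, PCNA and RRM2 at 248, 226 and 212 FPKM, and after PTTG1 came CCNB1 and UBE2C at 178 and 173 FPKM. The coefficient of variation over the 9 libraries, with groups ignored, had a median of 6.16% and ran from 2.42% (RRM2) to 12.7% (CENPE), and its median over the 7291 genes in the same range of levels was 7.82%.

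**Figure D1:**
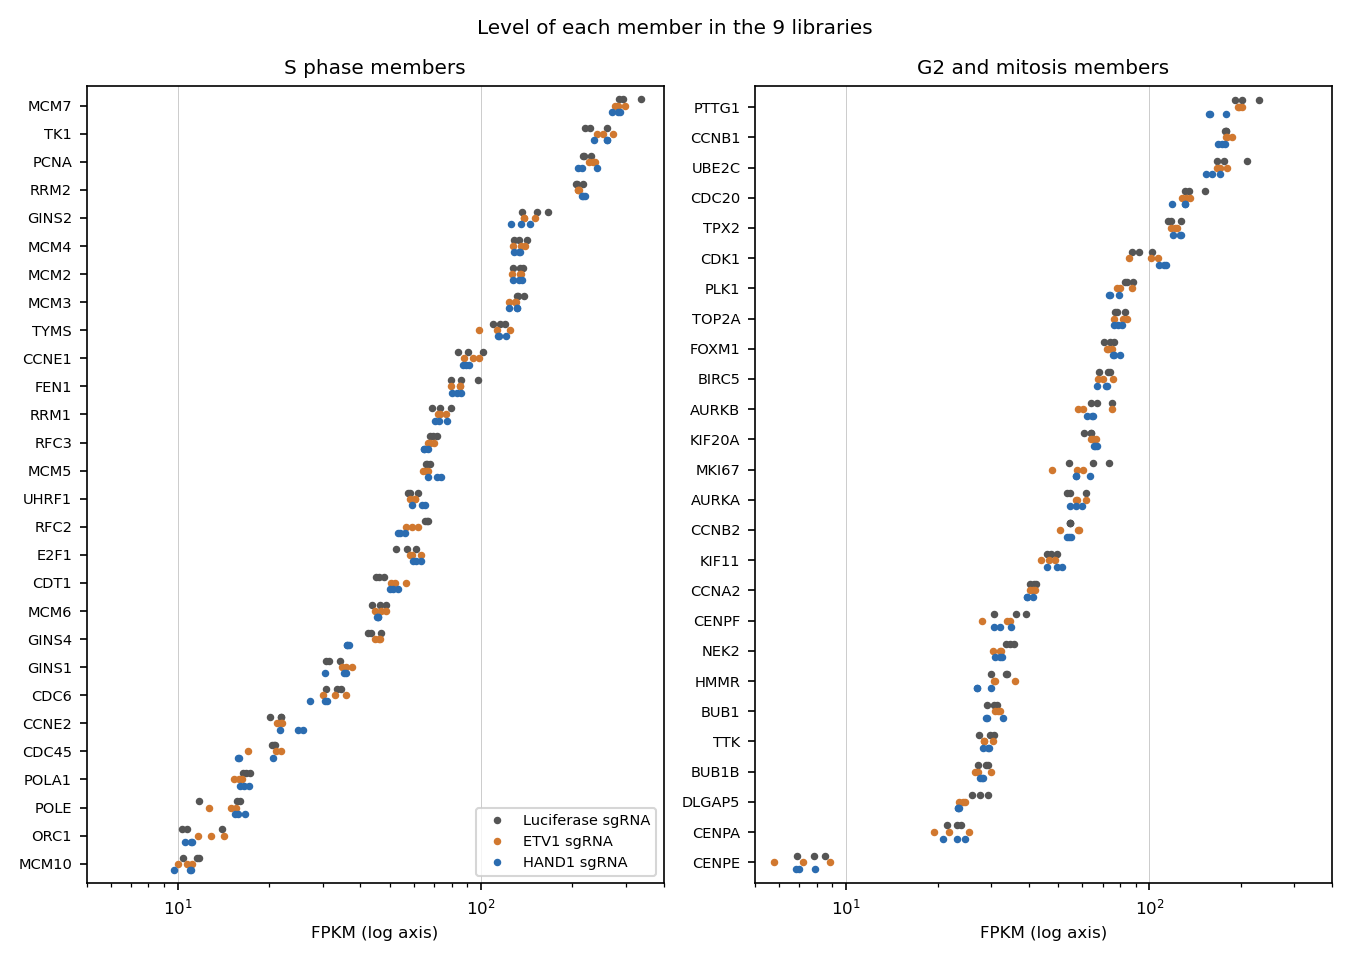
Level of each gene (FPKM, log axis) in each of the 9 libraries, coloured by sgRNA, for S phase genes (left) and G2 and mitosis genes (right), ordered by mean. The colours lie close together in most rows, and in the row of GINS4 the HAND1 sgRNA libraries (36.1 to 36.6 FPKM) sit below the other 6.

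Under ETV1 sgRNA none of the 54 genes was called, and under HAND1 sgRNA 4 of them were lower. A gene was called at an adjusted p under 0.05 in limma over all genes tested. Against the controls ETV1 sgRNA gave 0 calls among 28 S phase genes and 0 among 26 G2 and mitosis genes, where 0.203% of all genes tested were called (0.0617% lower and 0.141% higher). At an unadjusted p under 0.05 there were 3 and 2 genes, with a share of 8.2% over all genes. Among the 7291 genes in the same range of levels, the smallest difference called was 0.378 (log2) under ETV1 sgRNA and 0.185 under HAND1 sgRNA. Smaller differences were thus called only under HAND1 sgRNA, and the counts of calls do not compare the sgRNAs.

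HAND1 sgRNA gave 2 lower S phase genes (GINS4 and RFC2), 2 lower G2 and mitosis genes (DLGAP5 and PTTG1) and 0 higher ones, where 6.6% of all genes tested were called (2.93% lower and 3.67% higher). At an unadjusted p under 0.05 there were 4 and 6 genes, with a share of 20.3% over all genes. Between the sgRNAs, limma called GINS4 lower under HAND1 than under ETV1 sgRNA and no other of the 54, where 4.05% of all genes were called (2.04% lower and 2.01% higher). The unadjusted counts were 2 and 2, with a share of 15.4% over all genes. Both comparisons with the controls use the same 3 control libraries.

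Groups of 3 libraries that do not overlap were common in these data. Under ETV1 sgRNA 2 of the 54 genes lay wholly above the controls and 5 wholly below, where 6.88% and 6% of all genes did so (12.9% in all). Under HAND1 sgRNA the counts were 3 above and 10 below, against 13% and 12.7% (25.7% in all). Between the sgRNAs HAND1 lay above in 4 and below in 6, against 10.9% and 11.5% (22.4% in all). The median difference of the S phase genes, in log2(FPKM + 1), was −0.0023 under ETV1 sgRNA and −0.021 under HAND1 sgRNA, that of the G2 and mitosis genes −0.021 and −0.037, and that of all genes tested −0.0076 and −0.014.

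The 95% intervals give the size of change that these data exclude for a single gene. All 54 intervals lay inside 1.5-fold in either direction in all 3 comparisons; differences are in log2(FPKM + 1), where the pseudocount makes changes of low genes look slightly smaller. Over all genes tested the share inside 1.5-fold was 92.1% for ETV1 sgRNA, 86.7% for HAND1 sgRNA and 89.2% between the sgRNAs. Over the 7291 genes in the same range of levels, not matched in level within it, the shares were 96.98%, 93.02% and 95.2%. The intervals reached 0.14 (S phase) and 0.13 (G2 and mitosis) to either side in the median. They hold for 1 gene at a time and are not adjusted for the number of genes.

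In each phase the interval that reached farthest from 0 shows the largest change that was not excluded. Under ETV1 sgRNA these were the intervals of ORC1 (−0.10 to 0.38) and MKI67 (−0.47 to 0.039), the second a G2 and mitosis gene. Under HAND1 sgRNA they were those of CDC45 (−0.49 to 0.0021) and PTTG1 (−0.50 to −0.16), and between the sgRNAs those of ORC1 (−0.46 to 0.020) and PTTG1 (−0.44 to −0.10). Over 20 alternatives 1 interval passed 1.5-fold: without HAND1 sgRNA replicate 2 that of CDC45 reached 0.586 (log2), against a limit of 0.585.

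**Figure D2:**
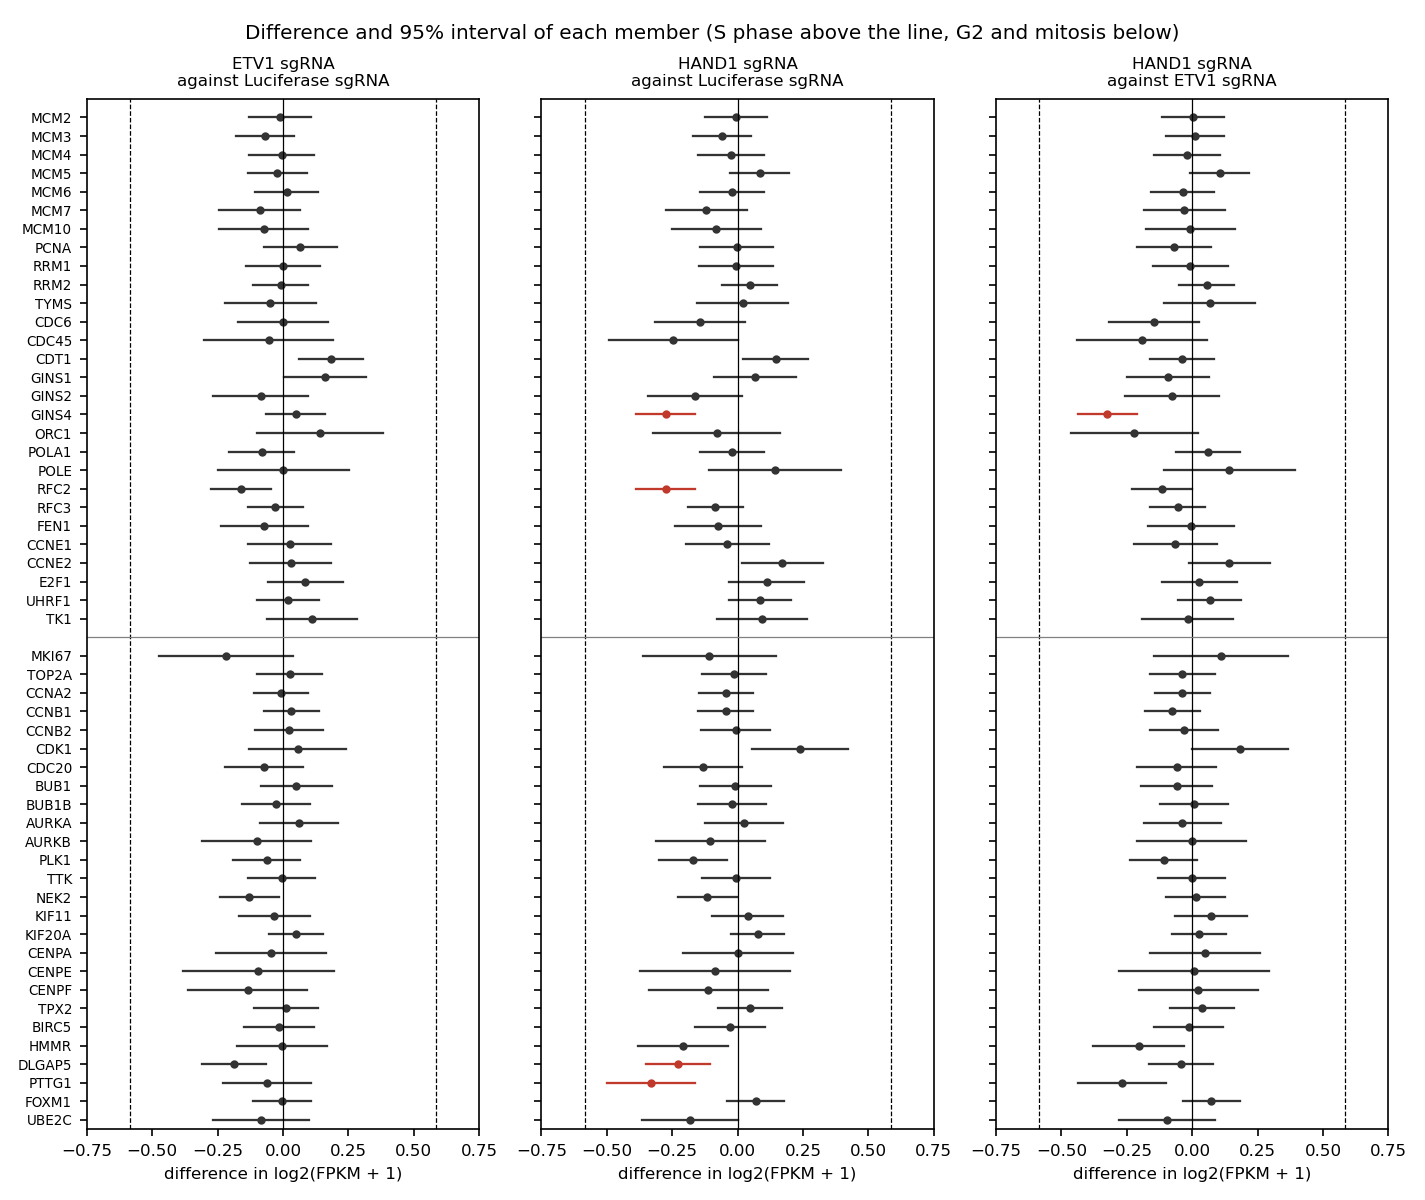
Difference in log2(FPKM + 1) of each gene (points) with its 95% interval from limma (lines) in the 3 comparisons, S phase genes above the grey line and G2 and mitosis genes below; dashed lines mark 1.5-fold and red marks an adjusted p under 0.05. No interval crosses a dashed line, and red are GINS4, RFC2, DLGAP5 and PTTG1 under HAND1 sgRNA and GINS4 between the sgRNAs.

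Averaged over its genes, each phase was measured more closely than a single gene. For the 28 S phase genes the mean log2(FPKM + 1) was 5.984, 5.951 and 5.992 in the controls, 5.953, 5.984 and 5.999 under ETV1 sgRNA and 5.931, 5.959 and 5.957 under HAND1 sgRNA. The groups overlapped. A linear model over the 9 libraries gave a difference with its 95% interval of 0.0028 (−0.038 to 0.044) for ETV1 sgRNA and −0.027 (−0.068 to 0.014) for HAND1 sgRNA, and −0.030 (−0.071 to 0.011) between them. With the deposited scaling a joint change of the S phase genes under ETV1 sgRNA outside −2.6% to 3.07%, or under HAND1 sgRNA outside −4.59% to 0.966%, was excluded. These limits widened and shifted with the scaling, to intervals on the log2 scale of −0.062 to 0.10 (ETV1) and −0.072 to 0.093 (HAND1) with quantile normalization, and of −0.043 to 0.051 and −0.052 to 0.042 with median centring.

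For the 26 G2 and mitosis genes the mean was 5.866, 5.836 and 5.837 in the controls, 5.792, 5.821 and 5.812 under ETV1 sgRNA and 5.781, 5.788 and 5.802 under HAND1 sgRNA. All 6 libraries with either sgRNA lay below all controls in this mean. The median over the same genes overlapped, at 5.912, 5.913 and 5.872 in the controls, 5.877, 5.879 and 5.933 under ETV1 sgRNA and 5.926, 5.838 and 5.897 under HAND1 sgRNA. Their share of the summed FPKM of a library was 0.389% ± 0.0287, 0.3896% ± 0.00507 and 0.386% ± 0.00671 in the same groups (SD, n = 3). These shares also overlapped, but only through control replicate 3. The controls were at 0.413%, 0.397% and 0.357%, and the sgRNA libraries ranged over 0.379% to 0.395%. The summed FPKM itself was highest in control replicate 3, at 538689 against 453458 and 463503 in replicates 1 and 2. The difference in the mean log2 was −0.037 (−0.066 to −0.0088) for ETV1 sgRNA and −0.056 (−0.085 to −0.027) for HAND1 sgRNA, that is −2.57% and −3.804%, with both intervals below 0, and −0.018 (−0.047 to 0.010) between the sgRNAs. With the deposited scaling a joint fall of more than 5.7% under HAND1 sgRNA was excluded.

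These G2 and mitosis intervals depended on how the libraries were scaled. With median centring the differences were −0.036 (−0.098 to 0.026) and −0.034 (−0.096 to 0.028) for ETV1 and HAND1 sgRNA, and with quantile normalization −0.025 (−0.13 to 0.078) and −0.021 (−0.12 to 0.082). With a trend on transcript length removed they were −0.032 (−0.094 to 0.029) and −0.042 (−0.10 to 0.019). All 6 intervals hold 0. That of ETV1 sgRNA also held 0 with the replicate block (−0.077 to 0.0020) and without ETV1 sgRNA replicate 1 (−0.060 to 0.0011).

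**Figure D3:**
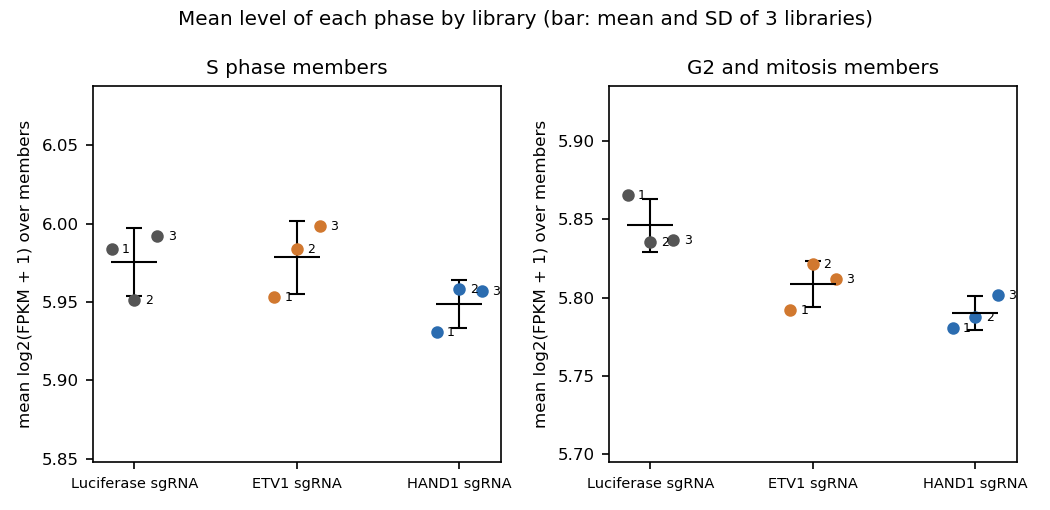
Mean log2(FPKM + 1) over the 28 S phase genes (left) and the 26 G2 and mitosis genes (right) in each library (points, numbered by replicate), with the mean and SD of each group of 3. The vertical axes do not start at 0; the S phase groups overlap, and the G2 and mitosis means are highest in the 3 controls.

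MCM2 to MCM7, the 6 subunits of the ring-shaped replicative helicase, held 0 calls in limma in all 3 comparisons, and 0 at an unadjusted p under 0.05. MCM2 had 134, 128 and 137 FPKM in the controls, 126, 135 and 135 under ETV1 sgRNA and 136, 128 and 134 under HAND1 sgRNA. MCM7 had 294, 286 and 336 FPKM in the controls, 284, 277 and 298 under ETV1 sgRNA and 282, 271 and 288 under HAND1 sgRNA. The groups overlapped for both, and the highest MCM7 value was that of control replicate 3. Over the 6 subunits the differences ran from −0.090 (MCM7) to 0.015 (MCM6) under ETV1 sgRNA and from −0.12 (MCM7) to 0.085 (MCM5) under HAND1 sgRNA. MCM3 lay below the controls in all 6 other libraries, at 134 ± 3.98, 128 ± 3.297 and 129 ± 4.28 FPKM (SD, n = 3) in the control, ETV1 sgRNA and HAND1 sgRNA groups, with limma adjusted p = 0.782 and 0.552.

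CDC45 and the GINS proteins join the MCM ring to make the active helicase, and MCM10 helps to start it. Of these 5 genes GINS4 was called. GINS4 had 46.7, 43.5 and 42.3 FPKM in the controls, 44.7, 46.4 and 45.9 under ETV1 sgRNA and 36.1, 36.3 and 36.6 under HAND1 sgRNA. The 3 values under HAND1 sgRNA lay below all others and close to each other. GINS4 fell by 0.27 against the controls (log2 −0.27, SE 0.051, limma adjusted p = 0.009403) and differed by −0.32 from ETV1 sgRNA (adjusted p = 0.00537), and both calls held in all 20 alternatives. In the GENCODE 29 annotation GINS4 shares exonic bases with 2 genes on the opposite strand, and the libraries do not keep strand. In all, 14 of the 54 genes share exonic bases with another gene, among them MCM2, MCM7, TYMS, CCNE2, PLK1 and HMMR.

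The partners of GINS4 were not called. GINS1 had 30.9, 31.6 and 34.2 FPKM in the controls, 35.98, 34.8 and 37.7 under ETV1 sgRNA and 30.5, 35.8 and 35.3 under HAND1 sgRNA (HAND1 sgRNA 0.068, interval −0.090 to 0.23, limma adjusted p = 0.656). GINS2 averaged 152 ± 14.9 FPKM in the controls and 135 ± 9.999 under HAND1 sgRNA (−0.16, adjusted p = 0.295), with overlapping values. GINS3, from the list of other replication genes, ranged over 17.4 to 18.2 FPKM in the controls and 19.3 to 20.9 under HAND1 sgRNA. Below the control range lay 1 of 3 HAND1 sgRNA libraries for GINS1, 2 of 3 for GINS2 and 0 of 3 for GINS3, beside 3 of 3 for GINS4.

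CDC45 split within a group. CDC45 had 20.4, 20.7 and 20.96 FPKM in the controls, 17.01, 21.9 and 21.1 under ETV1 sgRNA and 15.9, 20.5 and 15.8 under HAND1 sgRNA. Replicates 1 and 3 of HAND1 sgRNA were the lowest libraries, and replicate 2 was at the level of the controls. The difference of −0.25 (interval −0.49 to 0.0021) was not called (limma adjusted p = 0.251).

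ORC1, CDC6 and CDT1 load the helicase onto origins. ORC1 had 14.02, 10.3 and 10.7 FPKM in the controls, 11.7, 14.2 and 12.9 under ETV1 sgRNA and 10.6, 11.04 and 11.1 under HAND1 sgRNA. CDT1 had 46.2, 45.2 and 47.8 FPKM in the controls, 50.4, 56.4 and 51.9 under ETV1 sgRNA and 50.1, 51.2 and 53.04 under HAND1 sgRNA. ORC1 overlapped between either sgRNA and the controls, while all 6 sgRNA libraries of CDT1 lay above its controls. CDT1 had the largest positive difference of the S phase genes under ETV1 sgRNA, 0.18 (interval 0.061 to 0.31, limma adjusted p = 0.381), and was at 0.15 under HAND1 sgRNA (interval 0.022 to 0.27, adjusted p = 0.167). Neither was called; with library weights the second was (0.0481).

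POLA1 and POLE are the catalytic subunits of polymerases alpha and epsilon, PCNA is the sliding clamp, RFC2 and RFC3 belong to the clamp loader, and FEN1 trims the lagging strand. RFC2 had 66.5, 67.03 and 65.4 FPKM in the controls, 62.2, 56.4 and 59.3 under ETV1 sgRNA and 56.3, 53.4 and 54.2 under HAND1 sgRNA. The controls lay above all 6 other libraries, and the HAND1 sgRNA values were the lowest. RFC2 fell by 0.28 under HAND1 sgRNA (log2 −0.28, SE 0.051, limma adjusted p = 0.00929), a call that held in all 20 alternatives. Under ETV1 sgRNA the difference was −0.16 (interval −0.27 to −0.047, adjusted p = 0.408), and between the sgRNAs it was −0.12 (adjusted p = 0.315), so the responses were not shown to differ.

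RFC3 averaged 69.6 ± 2.06 FPKM in the controls and 65.6 ± 1.13 under HAND1 sgRNA (−0.085, limma adjusted p = 0.348). PCNA had 218, 231 and 217 FPKM in the controls, 234, 228 and 237 under ETV1 sgRNA and 209, 242 and 216 under HAND1 sgRNA, with overlapping groups. POLE was lowest in control replicate 3 and ETV1 sgRNA replicate 3, at 11.8 and 12.6 FPKM, and ranged over 15.4 to 16.6 under HAND1 sgRNA. Apart from RFC2 none of the 6 genes was called.

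Ribonucleotide reductase (RRM1, RRM2), thymidylate synthase (TYMS) and thymidine kinase (TK1) supply the nucleotides. RRM2 had 206, 207 and 218 FPKM in the controls, 208, 209.9 and 209 under ETV1 sgRNA and 217, 219.5 and 215 under HAND1 sgRNA. TYMS had 109.9, 116 and 119.8 FPKM in the controls, 113, 98.7 and 124 under ETV1 sgRNA and 114, 121 and 115 under HAND1 sgRNA. TK1 had 228, 221 and 260.4 FPKM in the controls, 253, 241 and 272 under ETV1 sgRNA and 235, 260.5 and 261 under HAND1 sgRNA. For each of these 3 genes both sgRNA groups overlapped the controls, and none of the 4 was called in limma or had an unadjusted p under 0.05.

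Cyclins E1 and E2 with their kinase start S phase, E2F1 drives S phase genes and UHRF1 helps to copy DNA methylation. CCNE1 had 90.8, 83.8 and 101 FPKM in the controls, 88.02, 93.9 and 98.4 under ETV1 sgRNA and 88.998, 91.4 and 87.1 under HAND1 sgRNA. CCNE2 had 20.2, 21.9 and 21.8 FPKM in the controls, 22.003, 21.3 and 21.8 under ETV1 sgRNA and 21.7, 25.8 and 24.9 under HAND1 sgRNA. E2F1 had 52.3, 56.8 and 61.1 FPKM in the controls, 58.1, 59.1 and 63.3 under ETV1 sgRNA and 60.9, 63.6 and 59.4 under HAND1 sgRNA. Both sgRNA groups overlapped the controls for all 3. CCNE2 had the largest positive difference of the S phase genes under HAND1 sgRNA (0.17, interval 0.018 to 0.33, limma adjusted p = 0.1901).

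Cyclins A2, B1 and B2 with CDK1 drive entry into mitosis, and FOXM1 is a transcription factor of mitotic genes. CCNB1 had 178, 178 and 179 FPKM in the controls, 181, 179 and 188 under ETV1 sgRNA and 174, 177 and 168 under HAND1 sgRNA. The HAND1 sgRNA values were the lowest 3, and the difference from the controls was −0.045 (interval −0.15 to 0.060, limma adjusted p = 0.659). CDK1 had 87.6, 92.5 and 102 FPKM in the controls, 107, 85.9 and 101 under ETV1 sgRNA and 108, 113 and 112 under HAND1 sgRNA. Its HAND1 sgRNA values were the highest 3, and the difference of 0.24 (interval 0.055 to 0.42) was not called (limma adjusted p = 0.127). It was called in 3 of 20 alternatives, with adjusted p = 0.0269 (quantile normalization), 0.0341 (library weights) and 0.0386 (length trend removed).

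FOXM1 had 76.3, 73.9 and 70.7 FPKM in the controls, 72.2, 73.1 and 74.98 under ETV1 sgRNA and 79.95, 75.7 and 76.4 under HAND1 sgRNA. CCNA2, the steadiest of the G2 and mitosis genes, averaged 41.4 ± 0.944, 41.1 ± 0.791 and 40.1 ± 1.05 FPKM in the control, ETV1 sgRNA and HAND1 sgRNA groups, and CCNB2 54.7 ± 0.1405, 55.7 ± 4.31 and 54.4 ± 0.896. These 3 genes overlapped with the controls and were not called.

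PLK1, the aurora kinases, NEK2, TTK and the BUB kinases run the centrosomes, the spindle and its checkpoint. PLK1 had 88.4, 84.4 and 83.2 FPKM in the controls, 80.1, 77.9 and 87.3 under ETV1 sgRNA and 73.6, 74.3 and 79.2 under HAND1 sgRNA. All HAND1 sgRNA values were below the controls (−0.17, interval −0.30 to −0.042, limma adjusted p = 0.119). NEK2 averaged 34.7 ± 0.974 FPKM in the controls, 31.6 ± 1.07 under ETV1 sgRNA and 31.9 ± 0.937 under HAND1 sgRNA, and all 6 sgRNA libraries lay below its controls (adjusted p = 0.539 and 0.2396). Of the 7 kinases limma called 0 in each comparison, with 1, 2 and 0 at an unadjusted p under 0.05 (ETV1 sgRNA, HAND1 sgRNA and between them).

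CDC20 and UBE2C work with the anaphase-promoting complex, which destroys securin (PTTG1) so that sister chromatids can part. PTTG1 had 192, 201 and 230.1 FPKM in the controls, 197, 197 and 202 under ETV1 sgRNA and 158, 179 and 157 under HAND1 sgRNA. The HAND1 sgRNA values were the lowest 3, and control replicate 3 was the highest. PTTG1 fell by 0.33 under HAND1 sgRNA (log2 −0.33, SE 0.076, limma adjusted p = 0.0279), the largest difference of the 54 genes there. The call was lost without control replicate 2 (adjusted p = 0.0643) and without HAND1 sgRNA replicate 1 or 3 (0.102 and 0.116). It was also lost with no filter (0.0543) and when each comparison was fitted on its own groups (0.07797). Without control replicate 3 the difference was −0.26 (adjusted p = 0.0341) and with the length trend removed −0.23 (0.0113), both called.

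Between the sgRNAs PTTG1 differed by −0.27 (limma adjusted p = 0.0883), not called, and was called in 5 of 20 alternatives. Its close relatives could share reads with it, and of these PTTG2 was listed at 0 and PTTG3P averaged 0.446 FPKM. UBE2C had 176, 167 and 209.5 FPKM in the controls, 167, 171 and 180.1 under ETV1 sgRNA and 153, 171 and 160.5 under HAND1 sgRNA. Its highest value was again that of control replicate 3, and it was not called (HAND1 sgRNA −0.18, adjusted p = 0.2496). CDC20 averaged 139 ± 11.3 FPKM in the controls and 127 ± 6.83 under HAND1 sgRNA (adjusted p = 0.313).

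CENPA marks the centromere, CENPE and CENPF hold microtubules at the kinetochore, and BIRC5 (survivin) guides aurora B. CENPF had 39.2, 36.3 and 30.8 FPKM in the controls, 33.8, 34.8 and 27.97 under ETV1 sgRNA and 34.9, 30.7 and 32.2 under HAND1 sgRNA. Both sgRNA groups overlapped the controls, and replicate 3 was the lowest library of the control and of the ETV1 sgRNA group. CENPE, the lowest of the 54, ranged over 6.903 to 8.52 FPKM in the controls, 5.78 to 8.82 under ETV1 sgRNA and 6.81 to 7.89 under HAND1 sgRNA. Limma called 0 of the 4 genes in each comparison, with 0 at an unadjusted p under 0.05.

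KIF11 and KIF20A are motors, and TPX2, HMMR and DLGAP5 help to assemble the spindle. DLGAP5 had 29.3, 27.6 and 26.1 FPKM in the controls, 24.3, 24.7 and 23.5 under ETV1 sgRNA and 23.5, 23.3 and 23.4 under HAND1 sgRNA. The controls lay above all 6 other libraries. DLGAP5 fell by 0.23 under HAND1 sgRNA (log2 −0.23, SE 0.055, limma adjusted p = 0.03499), and under ETV1 sgRNA it was at −0.19 (adjusted p = 0.3705). Between the sgRNAs it ranged over −0.062 to −0.022 in the 20 alternatives (limma adjusted p of 0.705 to 0.931), so the responses were not shown to differ. The HAND1 sgRNA call was lost in 12 of 20 alternatives. It was lost without control replicate 1 or 2 (adjusted p = 0.106 and 0.1003), any HAND1 sgRNA replicate (0.0932, 0.102 and 0.111) or ETV1 sgRNA replicate 1 or 2 (0.0569 and 0.05203). The other losses came with median centring (0.0941), quantile normalization (0.0799), no intensity trend (0.0555), each comparison fitted on its own groups (0.07797) and the replicate block (0.0536).

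HMMR, a hyaluronan receptor that also binds the spindle, had 33.6, 33.9 and 30.1 FPKM in the controls, 30.6, 35.9 and 30.9 under ETV1 sgRNA and 26.99, 30.03 and 26.98 under HAND1 sgRNA. The HAND1 sgRNA values were the lowest 3, and the difference of −0.21 (interval −0.38 to −0.035) was not called (limma adjusted p = 0.159). KIF11, KIF20A and TPX2 were not called, with differences from the controls between −0.033 (KIF11, ETV1 sgRNA) and 0.077 (KIF20A, HAND1 sgRNA).

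**Figure D4:**
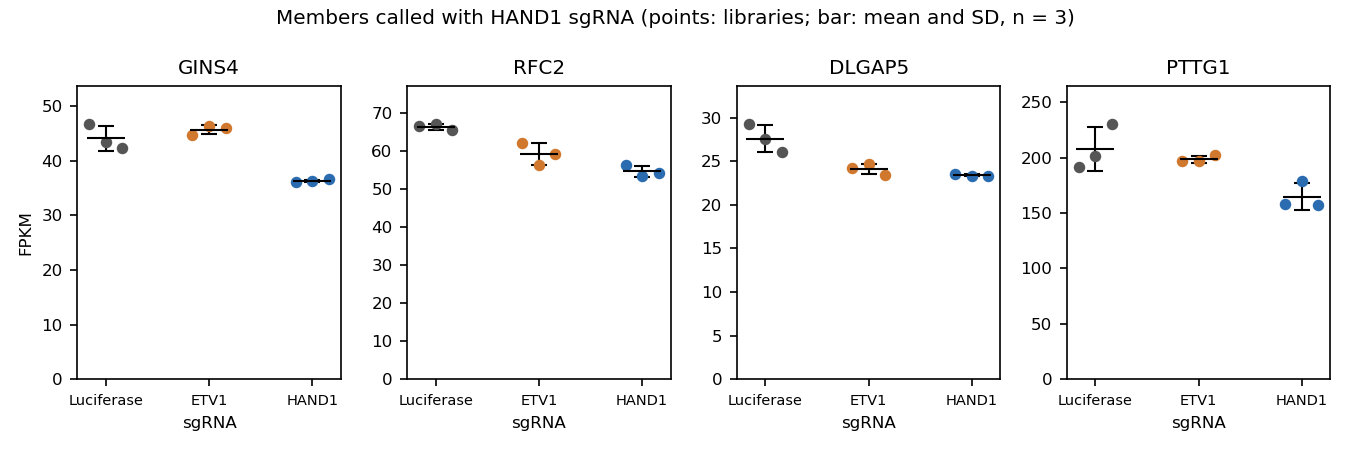
FPKM of GINS4, RFC2, DLGAP5 and PTTG1 in each library (points) with the mean and SD of each group of 3 (bars), vertical axes from 0. Under HAND1 sgRNA all points lie below the controls; under ETV1 sgRNA those of RFC2 and DLGAP5 also do, and those of GINS4 and PTTG1 lie among the controls.

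MKI67, which coats mitotic chromosomes and is the standard proliferation marker, and TOP2A, which untangles DNA, were not called. MKI67 had 73.7, 65.2 and 54.4 FPKM in the controls, 60.4, 57.7 and 47.5 under ETV1 sgRNA and 63.9, 57.1 and 57.1 under HAND1 sgRNA. It had the largest difference of the 54 genes under ETV1 sgRNA (−0.22, interval −0.47 to 0.039, limma adjusted p = 0.691). The groups overlapped, and replicate 3 was the lowest library of the control and of the ETV1 sgRNA group. TOP2A had 83.02, 76.99 and 78.1 FPKM in the controls, 84.3, 81.9 and 76.3 under ETV1 sgRNA and 78.4, 76.1 and 81.3 under HAND1 sgRNA. Both sgRNA groups of TOP2A overlapped the controls.

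Control replicate 3 deviated by transcript length in these genes too. Across the 54 genes its difference from the mean of replicates 1 and 2 had a correlation of −0.71 with log2 length of the longest protein-coding transcript, a description over genes that share the same 3 libraries. It was −0.48 over the S phase genes and −0.89 over the G2 and mitosis genes. UBE2C, with the shortest transcript (914 nt), was at 0.29 and MKI67, with the longest (12678 nt), at −0.34. GINS4 was at −0.091 and RFC2 at −0.029. Without this library GINS4 differed under HAND1 sgRNA by −0.30 and RFC2 by −0.29, and with the length trend removed by −0.29 and −0.24, all called in limma. ETV1 sgRNA replicate 3 differed from the mean of replicates 1 and 2 of its group by 0.089 for UBE2C and −0.31 for MKI67. Genes over 6000 nt had a median deviation from the other libraries of the group of −0.072 in it and −0.097 in control replicate 3.

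**Figure D5:**
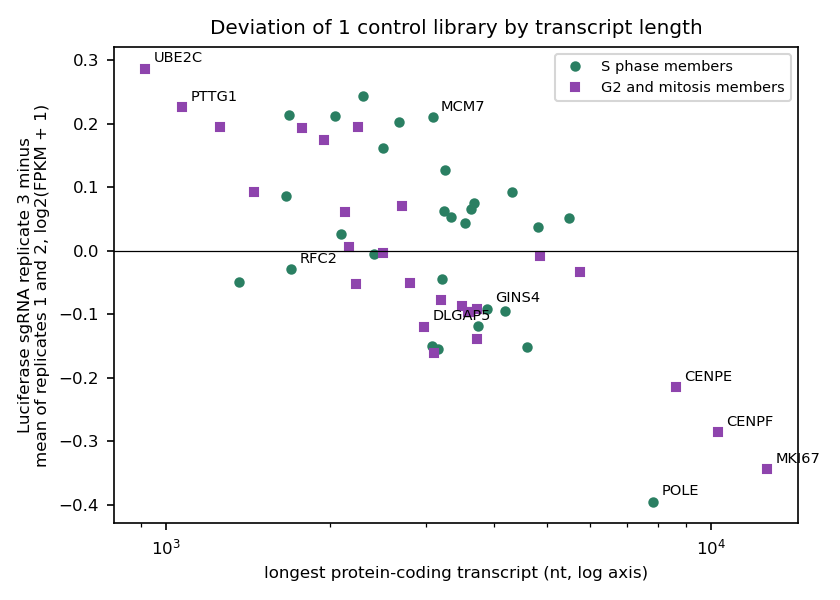
Difference of control replicate 3 from the mean of control replicates 1 and 2 in log2(FPKM + 1) against the length of the longest protein-coding transcript (nt, log axis), 1 point per gene. Short genes such as UBE2C (0.29) lie above 0 and long genes such as MKI67 (−0.34) below.

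Medians of genes with and without the promoter words are given with no test. Under HAND1 sgRNA the median difference was −0.022 for the 11 G2 and mitosis genes with a CHR and −0.087 for the 9 without. For the 12 S phase genes with an E2F word it was −0.012, and for the 12 without −0.058. Under ETV1 sgRNA the medians were −0.033 and −0.062 for CHR and −0.014 and −0.0036 for E2F. Between the sgRNAs they were −0.031 and −0.0025 for CHR and −0.010 and −0.041 for E2F. Genes with the word were the lower ones only for CHR between the sgRNAs and for E2F under ETV1 sgRNA.

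The wider machinery was read against the same shares over all genes tested, 0.203% called under ETV1 sgRNA, 6.6% under HAND1 sgRNA and 4.05% between them, and 8.2%, 20.3% and 15.4% at an unadjusted p under 0.05. Of 50 other replication genes, such as the remaining ORC, polymerase and RPA subunits, limma called 0 under either sgRNA against the controls, with 3 (ETV1) and 7 (HAND1) at an unadjusted p under 0.05 and medians of −0.038 and −0.023. Between the sgRNAs CDC7, the kinase that fires origins, was higher under HAND1 sgRNA. CDC7 had 38.2, 42.6 and 38.5 FPKM in the controls, 33.7, 38.1 and 32.5 under ETV1 sgRNA and 41.4, 43.3 and 42.5 under HAND1 sgRNA. The difference between the sgRNAs was 0.28 (limma adjusted p = 0.0492), and the call was lost in 9 of 20 alternatives, among them those without control replicate 1 (adjusted p = 0.0588), control replicate 2 (adjusted p = 0.0525), ETV1 sgRNA replicate 1 (adjusted p = 0.159), ETV1 sgRNA replicate 3 (adjusted p = 0.168), HAND1 sgRNA replicate 1 (adjusted p = 0.111), HAND1 sgRNA replicate 2 (adjusted p = 0.1502) or HAND1 sgRNA replicate 3 (adjusted p = 0.149).

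Of 65 other mitosis genes tested, limma called 0 under ETV1 sgRNA, and under HAND1 sgRNA 1 rose and 1 fell. At an unadjusted p under 0.05 there were 3 (ETV1) and 8 (HAND1), where the shares over all genes were 8.2% and 20.3%. The median difference was −0.024 under either sgRNA. KIFC1 was listed at 0 and not tested. SGOL1, the shugoshin that protects cohesion at centromeres, had 25.4, 27.1 and 26.1 FPKM in the controls, 23.5, 23.7 and 22.4 under ETV1 sgRNA and 17.5, 17.3 and 18.03 under HAND1 sgRNA. The 3 groups did not overlap, and HAND1 sgRNA was the lowest. SGOL1 fell by 0.55 under HAND1 sgRNA (log2 −0.55, SE 0.053, limma adjusted p = 1.75e-04) and differed by −0.38 from ETV1 sgRNA (adjusted p = 0.00268), and both calls held in all 20 alternatives. ECT2, which places the cleavage furrow, had 27.6, 27.5 and 26.9 FPKM in the controls, 26.7, 27.5 and 27.9 under ETV1 sgRNA and 30.95, 32.5 and 31.1 under HAND1 sgRNA. ECT2 rose by 0.20 under HAND1 sgRNA (limma adjusted p = 0.0359), a call lost in 11 of 20 alternatives, among them those without control replicate 1 (adjusted p = 0.0733), control replicate 2 (adjusted p = 0.0991), control replicate 3 (adjusted p = 0.07699), ETV1 sgRNA replicate 1 (adjusted p = 0.0524), ETV1 sgRNA replicate 2 (adjusted p = 0.0563), HAND1 sgRNA replicate 1 (adjusted p = 0.0774), HAND1 sgRNA replicate 2 (adjusted p = 0.125) or HAND1 sgRNA replicate 3 (adjusted p = 0.0968).

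The regulators around both waves held 0 calls in limma in all 3 comparisons. Of 18 genes of cell cycle transcription control (E2F, RB and MuvB families), 0, 1 and 2 had an unadjusted p under 0.05 (ETV1 sgRNA, HAND1 sgRNA and between them). Of 16 replication stress and checkpoint genes 0, 1 and 1 did so, and of 12 tested G1 cyclins, cyclin-dependent kinases and their inhibitors 0, 1 and 0. The shares over all genes were again 0.203%, 6.6% and 4.05% called, and 8.2%, 20.3% and 15.4% unadjusted, so that lists of this size hold few calls at the background rate. In these lists the intervals that reached farthest from 0 under HAND1 sgRNA were those of E2F8 (−0.0015 to 0.51), CHEK2 (−0.52 to −0.024) and CDKN2D (−0.77 to 0.29).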

How the data were processed

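The authors deposited 1 table of FPKM per gene symbol for 9 libraries. The submitters' processing notes name STAR, Cufflinks and hg19, with no version; gene models, filters and the scaling between libraries were not stated. The kit was non-stranded, per the labels' protocols. FPKM values are not read counts, so no count model was used, and depth is known only relative to 1 library. Values below 1e-06 were read as 0 (6473 genes were at 0 throughout).

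The 11348 genes averaging 1 FPKM or more were analysed as log2(FPKM + 1) in limma 3.58.1 (R 4.3.3), with all 9 libraries, group as the only term and an intensity trend (residual degrees of freedom 6, prior 4.15). P-values were two-sided and adjusted by Benjamini-Hochberg over all of these genes. Single-gene intervals are limma's 95% intervals, and those of phase means come from a linear model over libraries. The code was tested on simulated data. Transcript lengths (GENCODE 29) were matched for 90.9% of genes tested.

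The genes, lists and tests were chosen with earlier results of these data known. Every library's value is given for called genes, for the 3 of each phase with the largest difference in a comparison or the highest mean, and for 13 standard genes. MCM3, GINS2, GINS3, RFC3, POLE, CCNA2, CCNB2, NEK2, CENPE and CDC20 were added after their values were seen. The 20 alternatives were pseudocounts of 0.1 and 5, no filter, a minimum of 5 FPKM, median centring, quantile normalization, a fit without the intensity trend, weights per library, separate fits for each pair of groups, a replicate block, a length trend removed (chosen after seeing the data) and each library left out.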

Additional observations from a re-analysis of the deposited data

How the results depend on the processing

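Over 20 alternatives 0 genes of either phase were called under ETV1 sgRNA, and 1 S phase gene (GINS4) between the sgRNAs. Under HAND1 sgRNA 2 S phase genes were called in 19 alternatives and 3 with library weights (CDT1 the third). The 2 G2 and mitosis genes called under HAND1 sgRNA became 1 with no filter, median centring, no intensity trend or the replicate block. They became 3 with the length trend removed and 4 with library weights, and in both settings CDK1 was called as higher. With quantile normalization the count stayed at 2, but DLGAP5 was lost and CDK1 was called as higher. The count was 0 with each comparison fitted on its own groups, and 0 to 2 with a library left out. Between the sgRNAs 0 became 1 (PTTG1) with quantile normalization, library weights, separate fits or the length trend removed, and 0 to 1 with a library left out.

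Scaling moved the phase means. For HAND1 sgRNA against the controls median centring gave −0.0054 (S phase) and −0.034 (G2 and mitosis), and quantile normalization 0.010 and −0.021. Between the sgRNAs median centring gave −0.0094 and 0.0020, and quantile normalization 0.0043 for G2 and mitosis. With a library left out, the S phase and the G2 and mitosis means ranged over −0.0095 to 0.016 and −0.044 to −0.028 (ETV1 sgRNA), −0.039 to −0.018 and −0.062 to −0.046 (HAND1 sgRNA), and −0.043 to −0.020 and −0.027 to −0.012 (between them). Without ETV1 sgRNA replicate 1 the S phase interval between the sgRNAs (−0.084 to −0.0015) lay below 0.

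Over all genes 23, 749 and 460 were called. Library weights gave 45 (ETV1 sgRNA) and 1312 (HAND1 sgRNA), and separate fits 14 (ETV1 sgRNA). With a library left out the counts were 11 to 28, 433 to 729 and 271 to 592. The cause of these shifts was not tested.

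Replicate numbers did not pair the libraries (correlations of deviations −0.15 to 0.14, highest between replicate 3 of the controls and of ETV1 sgRNA). The replicate block ended the calls of DLGAP5 (limma adjusted p = 0.0536) and ECT2 (0.0687) under HAND1 sgRNA. Depth in reads is unknown, so counting error could not be separated from the spread between libraries.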
